A study of Mus musculus with 2 samples.

Results

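Annexins and S100 proteins were followed across the epithelial classes of the adult mouse mammary gland through 10 genes, the 5 annexins Anxa1, Anxa2, Anxa3, Anxa5 and Anxa8 and the 5 S100 genes S100a1, S100a6, S100a10, S100a11 and S100a14. They were taken by symbol from the 27998 genes of the count table, and all 10 had counts in every class below. The study made 2 droplet (10X Chromium) libraries from adult FVB/NJ mice at 10 weeks of age, each from the pooled glands of 4 mice. One holds total epithelial cells (Lin-CD24+, depleted of cells with the blood and endothelial markers TER119, CD31 and CD45) and gave 3302 cells. The other holds sorted basal cells (Lin-CD29hiCD24+) and gave 4771 cells. Since each population is 1 library of pooled mice, no spread between animals can be given, no test was possible, and every interval is a 95% interval for counting error only.

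Cells of the total epithelium library were split by fixed sums of counts. Basal cells (1280, 38.8% of the library) had 10 or more counts of Krt5, Krt14 and Acta2, the basal keratins and smooth muscle actin. Mature luminal (ML) cells (1133, 34.3%) had 10 or more counts of Prlr, Stc2 and Gpx3. Luminal progenitor (LP) cells (766, 23.2%) were other cells with 3 or more counts of the luminal keratins Krt8, Krt18 and Krt19. A further 26 cells met both the basal and the ML rule and were kept apart, and 97 cells met no rule. None of the 10 genes entered these rules. The median count per cell was 1820 for basal, 2483.5 for LP and 3403 for ML cells, so levels are given per 1000000 counts of a class (CPM). Markers outside the rules followed the labels: 8 basal markers summed to 18753 CPM in the basal class against 130 in LP and 58.3 in ML, 6 LP markers (Elf5, Kit, Aldh1a3, Csn3, Wfdc18 and Ltf) to 10584 CPM in LP against 321 in basal and 1016 in ML, and 7 ML markers (Esr1, Pgr, Foxa1, Cited1, Areg, Wnt4 and Tnfsf11) to 4486 CPM in ML against 46.8 in basal and 383 in LP. The library holds 9227651 counts and the sorted basal library 2488704, and 4 immune markers had no count in any class.

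Annexins are cytosolic proteins that bind negatively charged phospholipids of membranes when calcium rises. They act in membrane repair, vesicle traffic and the control of inflammation. S100 proteins are small calcium sensors with paired EF hands that usually work as dimers and change shape on binding calcium so that they can grip a target. The families meet in defined complexes: S100A10, which has lost calcium binding, holds annexin A2 in a heterotetramer at the plasma membrane, and S100A11 binds annexin A1.

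The S100 genes lie on mouse chromosome 3 in GRCm38, in a pair of groups 2896 kb apart (mm10, GENCODE annotation), and the annexins are scattered. S100a1 (chr3:90511034-90514392, minus strand) lies 12.5 kb from S100a14 (chr3:90526856-90528837, plus strand), which is followed after 84.0 kb by S100a6 (chr3:90612882-90624181, plus strand). S100a11 (chr3:93520488-93526287, plus strand) lies only 28.8 kb before S100a10 (chr3:93555080-93564643, plus strand). Anxa5 (chr3:36448923-36475894, minus strand) is on the same chromosome but far away, and Anxa1 (chr19:20373428-20390944, minus strand), Anxa2 (chr9:69453620-69491795, plus strand), Anxa3 (chr5:96793339-96845966, plus strand) and Anxa8 (chr14:34085981-34100571, plus strand) are on others. Each is annotated as protein coding, with coding sequences of 957 to 1038 bases in the annexins and 267 to 312 bases in the S100 genes. Anxa1, Anxa2 and Anxa8 overlap a gene on the opposite strand. On the same strand, Anxa2 overlaps Mir3109, Anxa3 overlaps Gm42603 and Anxa5 overlaps Mir7009. Whether strand was used in the counting is not given in the sources used here, and the part of overlapping genes in the counts was not tested.

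Promoter windows from 250 bases before to 50 bases after the start (RefSeq, GRCm38.p6) were matched for 7 of the 10 genes; Anxa3, S100a10 and S100a14 are named only. The bases just before the first exon are shown for S100a11 and S100a6, a pair with its highest level in ML cells, for Anxa8, which has its highest level in LP cells, and for Anxa2, the partner of S100a10. They are chr3:93520368-93520487, chr3:90612762-90612881, chr14:34085859-34085978 and chr9:69453500-69453619, all on the plus strand, and capitals mark GGGCGG, the core of a GC box, and TGANTCA, the letters of an AP-1 site.
S100a11: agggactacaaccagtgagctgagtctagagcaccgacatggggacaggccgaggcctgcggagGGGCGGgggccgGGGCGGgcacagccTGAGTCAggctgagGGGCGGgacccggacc
S100a6: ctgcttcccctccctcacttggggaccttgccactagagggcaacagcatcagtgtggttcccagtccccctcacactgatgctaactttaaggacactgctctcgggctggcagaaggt
Anxa8: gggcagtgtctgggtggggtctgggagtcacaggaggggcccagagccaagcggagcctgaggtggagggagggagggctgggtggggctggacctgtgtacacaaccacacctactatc
Anxa2: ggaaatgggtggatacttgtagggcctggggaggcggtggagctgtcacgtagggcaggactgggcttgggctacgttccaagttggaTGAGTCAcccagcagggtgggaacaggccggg
On both strands of the 7 whole windows, GGGCGG was found in Anxa2 and S100a11 (2 of 7, against 35.7% of 32851 promoter windows), TGANTCA in the same 2 genes (7.81% of all windows), TATAAA in Anxa1 and Anxa2 (13.6%) and CCAAT in S100a6 (37.4%). TGANTCA reads alike on both strands, and no matches of different motifs overlapped. The pair S100a11 and S100a6, both highest in ML, shared none of these motifs in the windows. These matches describe letters only.

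The 10 genes did not follow one class. Anxa3, S100a6, S100a11 and S100a14 were highest in ML cells, Anxa2 and Anxa8 in LP cells, and Anxa5 and S100a10 in basal cells. Anxa1 and S100a1 were also highest in ML cells, but their order between ML and LP turned with the scaling of the counts. The fold between the highest and the lowest class ran from 1.70 for S100a1 to 17.2 for Anxa8. Summed over all 10 genes the level was 2213 CPM in basal cells, 4441 CPM in LP cells and 5536 CPM in ML cells. Anxa1 supplied 21.3% of these counts in basal cells against 50.6% in LP and 47.1% in ML cells.

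**Figure D1:**
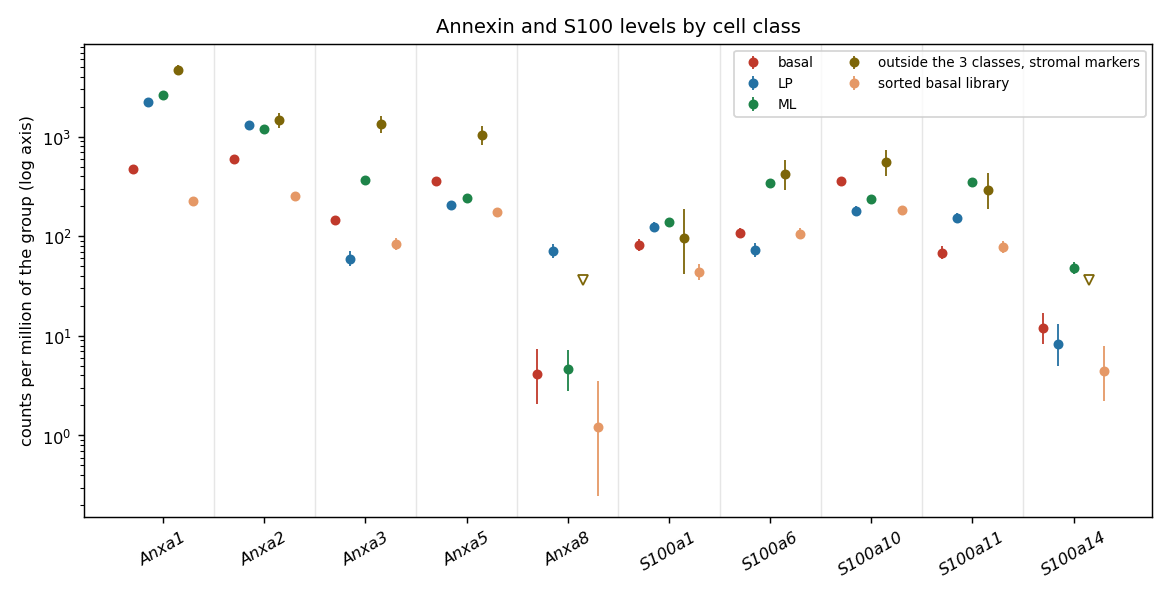
Level of each gene in CPM (log axis) in the basal, LP and ML classes, in 49 cells outside these classes that carry stromal markers, and in the sorted basal library; bars are 95% counting intervals and open triangles mark the level that 3 counts would give where none was found. Anxa1 and Anxa2 are lowest in basal cells among the 3 classes, Anxa8 stands out in LP cells, and S100a6, S100a11, S100a14 and Anxa3 are highest in ML cells among the 3 classes.

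Anxa1, a glucocorticoid-regulated protein that dampens inflammation, and Anxa2, a scaffold for membrane traffic and for the assembly of plasmin on the cell surface, were the annexins of both luminal classes. Anxa1 measured 472 CPM in basal (1252 counts), 2249 CPM in LP (4854 counts) and 2606 CPM in ML cells (10771 counts). Both luminal classes were thus far above basal cells, 4.76-fold (4.48 to 5.07) for LP and 5.52-fold (5.21 to 5.86) for ML, whereas ML exceeded LP by only 1.16-fold (1.12 to 1.2), and that direction turned under median-of-ratios scaling (log2 ratio of LP over ML -0.21, and 0.04 with that scaling). Anxa2 measured 601 CPM in basal (1595 counts), 1315 CPM in LP (2838 counts) and 1196 CPM in ML cells (4945 counts). LP was 2.19-fold (2.06 to 2.33) and ML 1.99-fold (1.88 to 2.11) above basal, and LP was 1.10-fold (1.05 to 1.15) above ML.

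Anxa3 and Anxa8 were the annexins that parted the luminal classes, in opposite directions. Anxa3, a family member found in many secretory and migrating cells, measured 366 CPM in ML (1511 counts), 146 CPM in basal (386 counts) and 59.8 CPM in LP cells (129 counts). It was the one annexin of the 5 with its lowest level in LP and its highest in ML, at a fold of 6.12 (5.11 to 7.38) between them. Anxa8, which binds endosomal membranes, measured 71.3 CPM in LP (154 counts) against 4.15 CPM in basal (11 counts) and 4.6 CPM in ML (19 counts). LP was 17.2-fold (9.35 to 35.2) above basal and 15.5-fold (9.61 to 26.5) above ML, and basal and ML could not be separated (ratio 0.902, 0.388 to 2.0). The basal and ML levels were 5.81% and 6.44% of the LP level. In comparison, the 6 LP markers reached a median of 3.21% (1.07 to 5.33%) of their LP level in basal cells and 9.75% (8.28 to 14.6%) in ML cells. Anxa8 in ML cells thus lay under all 6 LP markers, and in basal cells it lay slightly above them, on 11 counts. Of its 19 ML counts, 10 came from 55 ML cells that also carried progenitor genes, described below. The counts were thus uneven over ML cells, and whether they are background was not tested.

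Anxa5, widely used as a probe for phosphatidylserine on dying cells, varied less. It measured 356 CPM in basal (945 counts), 207 CPM in LP (446 counts) and 244 CPM in ML (1010 counts). Basal exceeded LP by 1.72-fold (1.54 to 1.93) and ML by 1.46-fold (1.33 to 1.60).

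Among the S100 genes, 3 were highest in ML by more than 2-fold over both other classes with counts scaled to the class total. S100a6, calcyclin, measured 341 CPM in ML (1409 counts), 109 CPM in basal (288 counts) and 73.2 CPM in LP (158 counts), a fold of 3.14 (2.76 to 3.58) over basal and 4.66 (3.95 to 5.53) over LP. S100a11, the partner of annexin A1, measured 354 CPM in ML (1465 counts), 153 CPM in LP (330 counts) and 68.3 CPM in basal (181 counts). ML exceeded basal by 5.19-fold (4.45 to 6.09) and LP by 2.32-fold (2.06 to 2.62), the latter falling just under 2-fold with median-of-ratios scaling (log2 ratio of LP over ML -1.21, and -0.97 with it). S100a14, a family member found mainly in epithelia, was sparse, with 48.2 CPM in ML (199 counts), 12.1 CPM in basal (32 counts) and 8.34 CPM in LP (18 counts). ML was still 3.99-fold (2.74 to 5.99) above basal and 5.77-fold (3.56 to 9.94) above LP. S100a6 and S100a14 thus shared an order with Anxa3, ML above basal above LP, but for S100a14 basal and LP did not differ beyond counting error (ratio 1.45, 0.788 to 2.74). For comparison, the 7 ML markers reached 0.437 to 21.3% of their ML level in basal and 5.51 to 24.9% in LP cells. The LP levels of Anxa3, S100a6 and S100a14 lay within the LP range, at 16.3%, 21.5% and 17.3% of ML. That range is not background alone. The ML markers measured 3097 CPM in 100 LP cells without progenitor genes and 85.6 CPM in 622 with them, described below. The basal levels, at 39.8%, 31.9% and 25.1%, lay above the basal range. For S100a14, on 32 basal counts, the counting interval (ratio to ML 0.251, 0.167 to 0.365) reached into that range, whose top is the marker Wnt4. In basal cells Anxa1 and S100a11 were at 18.1% and 19.3% of their ML level, above the median of 4.45% over the ML markers but under the highest of them.

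S100a10, the light chain of the annexin A2 tetramer, went the other way and measured 362 CPM in basal (961 counts), 235 CPM in ML (973 counts) and 181 CPM in LP (391 counts). Basal was 2.0-fold (1.78 to 2.26) above LP and 1.54-fold (1.41 to 1.68) above ML. S100a10 and S100a11, which lie side by side, were therefore highest in different classes. S100a1, best known from heart and skeletal muscle, measured 82.2 CPM in basal (218 counts), 124 CPM in LP (268 counts) and 139 CPM in ML (576 counts). Its LP and ML levels did not differ beyond counting error (ratio 0.891, 0.768 to 1.03), and their order turned with median-of-ratios scaling.

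Counted at a threshold of 2-fold, 2 of the 10 genes were higher in basal than in LP cells (Anxa3 and S100a10) and 4 were lower (Anxa1, Anxa2, Anxa8 and S100a11). Among all 8993 genes compared, 19.6% were 2-fold or more higher in basal and 13.3% were 2-fold or more lower. Both basal-higher genes were near the threshold, S100a10 at a log2 ratio of 1.0 and Anxa3 at 1.28, and both crossed it under some alternatives. S100a11, at -1.16, crossed it too, reaching -0.93 at its closest to 0. Against ML cells, no gene of the 10 was 2-fold higher in basal (background 18.0%) and 5 were lower (Anxa1, Anxa3, S100a6, S100a11 and S100a14, background 19.0%). Anxa2, at a log2 ratio of -0.99, was just within the threshold. Between the luminal classes 1 gene was higher in LP (Anxa8, background 10.6%) and 4 were lower (Anxa3, S100a6, S100a11 and S100a14, background 16.4%). The median log2 ratio of the 10 genes was -0.03 for basal over LP, -1.16 for basal over ML and -0.31 for LP over ML, beside 0.18, -0.06 and -0.27 over all genes compared.

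**Figure D2:**
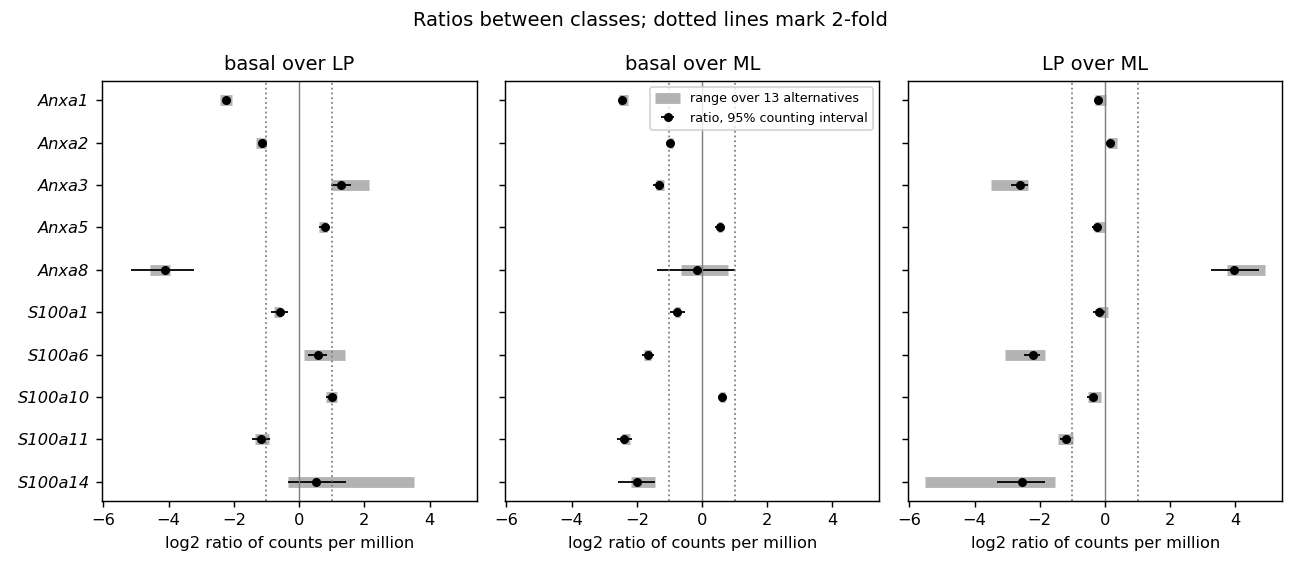
Log2 ratio of CPM between each pair of classes, with black points and lines for the ratio and its 95% counting interval and grey bars for the range over 13 alternative settings; dotted lines mark 2-fold. Of 16 ratios past 2-fold, 12 stay past it in all 13 settings, and both comparisons with LP have their widest grey bar at S100a14, which had 18 counts there.

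S100a10 was highest and Anxa2 lowest in the same class, the basal one. There were 0.603 (0.556 to 0.653) S100a10 counts per Anxa2 count in basal cells, against 0.138 (0.124 to 0.153) in LP and 0.197 (0.184 to 0.211) in ML cells. The sorted basal library gave 0.731 (0.647 to 0.826). For S100a11 and Anxa1 the ratio was 0.145 (0.123 to 0.169) in basal cells, 0.0680 (0.0606 to 0.0760) in LP cells and 0.136 (0.129 to 0.144) in ML cells. Basal and ML had overlapping intervals, although each gene differed more than 5-fold between them. The sorted basal library stood apart here at 0.348 (0.294 to 0.410). Counts from the 3′ end of transcripts carry different capture efficiencies for different genes, so each ratio can be compared between classes and is not a ratio of proteins or molecules.

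**Figure D3:**
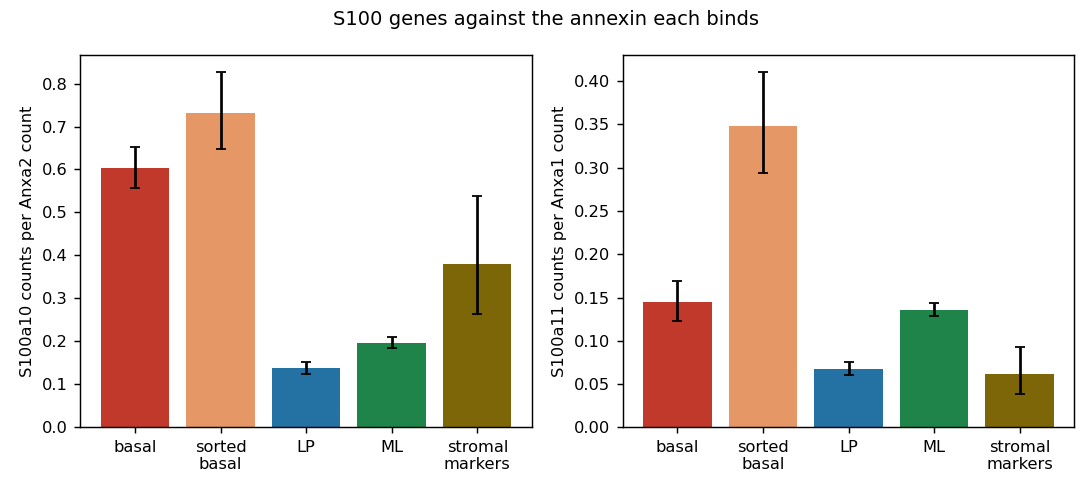
Counts of S100a10 per count of Anxa2 (left) and of S100a11 per count of Anxa1 (right) in the basal class, the sorted basal library, the LP and ML classes and the 49 unclassed cells with stromal markers; bars start at 0 and lines are 95% counting intervals. The S100a10 ratio is 0.603 in basal cells and 0.138 and 0.197 in LP and ML cells.

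To compare shares of cells, each cell was thinned to 1000 counts, which left 1228 basal, 725 LP and 1111 ML cells and dropped 52, 41 and 22 shallower ones. Anxa1 was then found in 28.6% (26.1 to 31.2%) of basal cells, 65.8% (62.2 to 69.2%) of LP cells and 75.5% (72.9 to 78.0%) of ML cells, where the cells before thinning gave 40.2%, 82.0% and 92.1%. Anxa2 was found in 39.3% of basal cells, 64.8% of LP cells and 62.7% of ML cells. S100a11 was found in 7.57% of basal cells but 30.3% of ML cells, with LP cells at 15%, and S100a6 in 9.45%, 6.76% and 26.8% (basal, LP, ML). Anxa3 was found in 12.2%, 4.0% and 23.1%, S100a10 in 28.3%, 15.2% and 18.9%, and Anxa5 in 28.8%, 17.9% and 21.7%. At the same depth S100a1 was found in 7.57%, 12% and 12.5%, Anxa8 in 0.407%, 8.28% and 0.630%, and S100a14 in 1.30%, 0.828% and 3.24%, always in the order basal, LP, ML. For comparison, the LP marker Csn3 was found in 3.34% of basal and 9.90% of ML cells against 76.4% of LP cells, and the ML marker Areg in 2.28% of basal and 8.69% of LP cells against 60.8% of ML cells. These markers are more abundant than Anxa8 and S100a14, so their shares set no background for such sparse genes. For those, only the percentages of the level in the highest class are given above.

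Anxa1 had the highest variance over the mean of the 10 genes in each class. At 1000 counts this ratio was 5.73 in LP, 3.72 in ML and 2.17 in basal cells, where pure sampling would give about 1. The mean counts per cell were 2.41, 2.63 and 0.477. Such a ratio can rise with the mean, so it ranks neither genes nor classes by their relative spread. Single LP cells reached 32 counts, while 34.2% of LP cells had none. Anxa2, at lower means of 1.36 in LP and 1.17 in ML, had a ratio of 1.70 and 1.39. Counts of 3 or more per cell were seen for Anxa1 in 30.3% of LP and 37.3% of ML cells but in 3.75% of basal cells. A basal cell carried a median of 2 of the 10 genes, an LP cell 2 and an ML cell 3, and 17.6%, 8.83% and 3.33% of cells carried none.

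**Figure D4:**
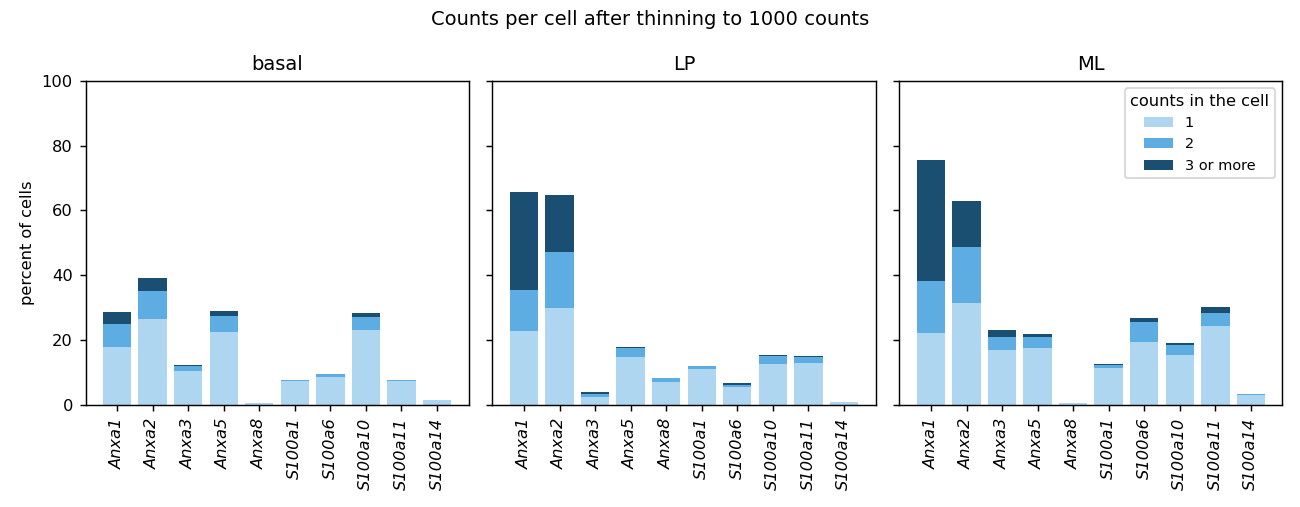
Percent of basal, LP and ML cells with 1, 2 or 3 and more counts of each gene after every cell was thinned to 1000 counts. Anxa1 reaches 3 or more counts in 30.3% of LP and 37.3% of ML cells and in 3.75% of basal cells, while most S100 counts are single counts.

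Within a class the genes hardly varied together at this depth. Over the 45 pairs the median Pearson correlation across cells was 0.02 across basal cells, 0.06 across LP cells and 0.03 across ML cells. The highest values were 0.13 for Anxa1 and Anxa2 in basal, 0.21 for Anxa3 and S100a6 in LP and 0.12 for Anxa2 and S100a10 in ML cells. The LP value covers the whole class, and both genes were higher in its 100 cells without progenitor genes, described below. The part of those cells in the correlation was not tested. Both genes of the annexin A2 tetramer were seen together in 14.3% of ML cells, where the product of their shares gives 11.9%. In basal cells this was 12.1% against a product of 11.1%, and in LP cells 10.2% against 9.84%. In sparse counts from 1 library such weak values are a description only.

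The LP class was defined by exclusion, and its S100 and Anxa3 counts came unevenly from its cells. LP cells were therefore split, after their values had been seen, by the summed counts of the progenitor genes Elf5, Csn3, Ltf and Wfdc18. The sum was 3 or more in 622 cells, 1 or 2 in 44 cells and 0 in 100 cells. The last were shallower, with a median of 1529 counts against 2710.5, and in 57.0% of them the 7 ML markers summed to 3 or more counts. Those markers reached 3097 CPM in these 100 cells against 85.6 CPM in the 622. The sum of basal markers (627 against 82.9 CPM, with 9 of the 100 cells at 3 or more counts) was higher there as well. It was mostly Cxcl14 (67 counts) and Krt17 (32 counts), and Myh11, Mylk and Trp63 had none. The sum of fibroblast markers was also higher (758 against 18.5 CPM, with 6 of the 100 cells). Of its 144 counts 134 were Dcn, which measured 1281 CPM over the ML class. Col1a1, Col1a2 and Col3a1 had counts in 1 cell each, and Lum and Pdgfra had none. The part of basal and fibroblast content was not tested. S100a14 had 2 counts in the 622 cells (1.06 CPM) against 13 counts in the 100 cells (68.5 CPM), and S100a6 measured 41.2 CPM against 406 CPM, a 9.84-fold difference (7.09 to 13.7). Anxa3 measured 32.8 against 242 CPM and S100a11 130 against 374 CPM. In contrast, Anxa8 was 3.66-fold (1.40 to 13.6) lower in the 100 cells, at 21.1 CPM from 4 counts against 77.1 CPM. Anxa2 (1222 against 1316 CPM), Anxa5 (232 against 198 CPM) and S100a1 (111 against 125 CPM) did not differ beyond counting error. Anxa1 was higher in the 100 cells, 3492 against 2122 CPM, and so was S100a10, 300 against 163 CPM, a 1.84-fold difference (1.37 to 2.45).

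With LP limited to the 622 cells with progenitor genes, the contrast with ML widened for Anxa3, S100a6 and S100a14. This split took out the LP cells richest in ML markers, so the widening is no separate result. ML exceeded these cells by 11.2-fold (8.66 to 14.6) for Anxa3, 8.27-fold (6.58 to 10.5) for S100a6 and 45.6-fold (12.5 to 379) for S100a14, the last from 2 LP counts. For S100a11 the fold was 2.73 (2.38 to 3.13), and Anxa8 was 16.8-fold (10.4 to 28.7) higher in these cells than in ML. Both intervals overlapped those of the whole LP class, at 2.32 (2.06 to 2.62) and 15.5 (9.61 to 26.5). With the 622 cells in place of all LP, S100a6 was 2.64-fold (2.05 to 3.43) and Anxa3 4.44-fold (3.39 to 5.91) higher in basal cells than in these LP cells, so that 4 of the 10 genes (with S100a10, and with S100a14 at 11.4-fold, 2.91 to 98.4) were 2-fold or more higher in basal, beside 22.4% of the 8901 genes compared. The whole LP class gave 2 of 10 beside 19.6%. The variance over the mean of Anxa1 was 5.38 over 609 of these cells thinned to 1000 counts. Of these cells, 15.9% had 5 or more counts and 65.0% had any.

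For S100a6, S100a11, Anxa3 and Anxa8, small bins of cells just under and just over the threshold between LP and ML were set side by side. The 50 LP cells just under it, with 7 to 9 counts of Prlr, Stc2 and Gpx3, had 258 CPM of S100a6, 355 CPM of S100a11, 186 CPM of Anxa3 and 8.07 CPM of Anxa8. The 70 ML cells just over it, with 10 to 12 counts, had 315, 396, 239 and 5.83 CPM in the same order. The counting intervals of the neighbouring bins overlapped for all 4 genes, which in bins of this size does not show equal levels. Anxa8 had 1 count in each bin, where 3 counts would be 24.2 and 17.5 CPM. Outside these 4, Anxa2 measured 1291 CPM just under and 985 CPM just over the threshold. S100a14 measured 40.4 and 29.1 CPM there, from 5 counts in each bin. The 448 LP cells with no count of the 3 ML rule genes had 52.1, 133, 57.1 and 86.5 CPM of the 4 genes in the order above.

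**Figure D5:**
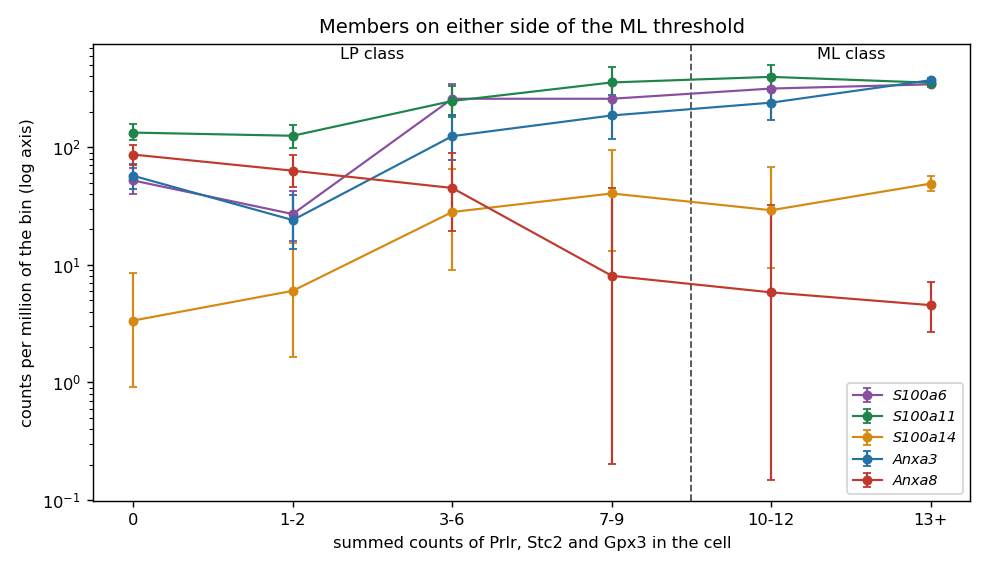
Level of 5 genes in CPM (log axis) in cells binned by the summed counts of Prlr, Stc2 and Gpx3, with 4 bins of LP cells left of the dashed threshold and 2 bins of ML cells right of it; bars are 95% counting intervals. S100a6, S100a11 and Anxa3 reach 258, 355 and 186 CPM in the LP bin just under the threshold and 315, 396 and 239 CPM in the ML bin just over it. S100a14 measures 40.4 and 29.1 CPM in these bins, from 5 counts in each. Anxa8 is highest in the LP cells with no count of Prlr, Stc2 and Gpx3.

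Among the 622 progenitor cells, the 342 with 10 or more counts of Csn3, the milk protein kappa-casein, had 1846 CPM of Anxa1 and the 280 with 9 or fewer had 2627 CPM, a 1.42-fold (1.34 to 1.52) difference. The largest difference in the same direction was that of Anxa3, at 53.8 against 21.2 CPM in the cells with more Csn3, 2.53-fold (1.49 to 4.37). Anxa2 (1.25-fold, 1.15 to 1.35), Anxa5 (1.41-fold, 1.14 to 1.74), S100a10 (1.37-fold, 1.09 to 1.73) and S100a11 (1.43-fold, 1.10 to 1.85) were also higher in the cells with less Csn3. S100a1 and S100a6 did not differ beyond counting error, S100a14 had 1 count on each side, and Anxa8 did not differ beyond counting error, at 81.7 and 68.7 CPM. Cells with and without a count of Kit, the receptor that marks many progenitors, had 2288 and 2089 CPM of Anxa1. The cells with more Csn3 were also deeper, with a median of 3214.5 counts against 2223.5, and the part of depth was not tested.

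ML cells that carried 2 or more counts of Elf5, Kit and Aldh1a3 numbered 55 and were deep, with a median of 5745 counts. Compared with the other 1078 ML cells, S100a6 was 142 against 358 CPM, S100a11 176 against 370 CPM, Anxa3 229 against 377 CPM and S100a14 15.5 against 50.9 CPM. Anxa8 was higher, at 30.9 against 2.36 CPM, so that 10 of the 19 Anxa8 counts of the ML class came from these 55 cells. Anxa1 differed little, at 2389 against 2625 CPM. No doublet caller was run, and cells of mixed content were not told apart from single cells here.

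In the basal class, cells were likewise split after their values had been seen, by the luminal keratins Krt8, Krt18 and Krt19. The 148 cells with 10 or more such counts had 716 CPM of Anxa1 and the 579 with 2 or fewer had 376 CPM, a 1.90-fold difference (1.63 to 2.21). Anxa2 measured 791 against 468 CPM, a 1.69-fold difference (1.47 to 1.94). S100a10 (329 against 337 CPM), Anxa3 (135 against 130 CPM) and Anxa5 (376 against 326 CPM) did not differ beyond counting error. The 6 LP markers moved with the split, at 1710 CPM in the 148 cells against 26.2 CPM in the 579, and 16.9% against 0.173% of cells had 3 or more of their counts. In the 123 of the 148 cells with 2 or fewer LP marker counts, Anxa1 was 441 CPM, and its ratio to the 579 cells was 1.17 (0.960 to 1.42). Anxa2 was 685 CPM in them, with a ratio of 1.46 (1.24 to 1.72), and S100a6 169 against 99.6 CPM, with a ratio of 1.70 (1.2 to 2.38). Anxa5 was 404 against 326 CPM in this comparison, with a ratio of 1.24 (1.01 to 1.52). Depth moved with the split too, at a median of 2710 counts in the 148 cells against 1559, and its part was not tested.

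Outside the epithelial classes, 49 of the 97 unclassed cells had 3 or more counts of stromal, vascular or immune markers other than Dcn. Their 10 genes summed to 9884 CPM, above every epithelial class. Anxa1 was 4695 CPM, 1.80-fold (1.62 to 1.99) above ML, and Anxa3 was 1328 CPM, 3.63-fold (2.96 to 4.41) above ML. Anxa5 was 1038 CPM, 4.25-fold (3.37 to 5.30) above ML, and S100a10 was 555 CPM, 2.36-fold (1.71 to 3.17) above ML. Anxa8 and S100a14 had no count there, where 3 counts would be 36.2 CPM. The 13 markers of that sum measured 10270 CPM in these cells against 30.5 (basal), 14.4 (LP) and 144 CPM (ML), the last being the class where Anxa3 was highest among the 3. In the ML class 15 cells carried 3 or more such counts, and leaving them out, or all cells with 3 or more stromal, vascular or immune counts, kept Anxa3, S100a6, S100a11 and S100a14 past 2-fold over basal.

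The sorted basal library offered a second view of basal cells, at a much lower depth with a median of 487 counts per cell, and 28 cell barcodes were shared between the libraries (0.848% of the total epithelium barcodes). Of 8 of the 10 genes with enough counts for the comparison, 3 were 2-fold or more lower in it than in the basal class and none was 2-fold or more higher. Over all 8095 genes compared, 16.1% were 2-fold or more lower and 28.3% higher, and the median gene was 1.36-fold higher in the sorted library. Anxa1 measured 227 CPM (564 counts) against 472 CPM in the basal class, Anxa2 251 against 601 CPM and Anxa5 174 against 356 CPM. S100a10 was 184 against 362 CPM, a 1.97-fold difference just within the threshold, while S100a6 (106 against 109 CPM) and S100a11 (78.8 against 68.3 CPM) did not differ beyond counting error. The LP markers summed to 144 CPM in the sorted library against 321 in the basal class, mainly through Csn3 (62.3 against 249 CPM). Ltf was higher in the sorted library (47.4 against 35.8 CPM). Elf5 (18.5 against 19.2 CPM) and Wfdc18 (12.9 against 13.2 CPM) were nearly level, and Kit and Aldh1a3 had 3 and 5 counts there. The ML markers summed to 30.1 against 46.8 CPM, mainly through Areg (5.22 against 24.5 CPM). Cited1 (8.84 against 5.66 CPM) and Wnt4 (8.04 against 6.79 CPM) were higher, and the others had 8 or fewer counts. The basal markers were lower in it too, at 13649 against 18753 CPM, and the 13 stromal, vascular and immune markers were higher, at 436 against 30.5 CPM, as were the 2 Schwann cell markers, at 53.0 against 11.3 CPM. The basal class was chosen by its counts of Krt5, Krt14 and Acta2, and all cells of the sorted library were taken. Library, sort, this choice and depth cannot be told apart in this comparison. All 10 genes were at or below their basal-class level in the sorted library except S100a11, and both basal estimates of Anxa1 and Anxa2 were below both luminal classes.

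Of the other 19 annexin and S100 genes in the table, 5 had 50 or more counts over the 3 classes. At 2-fold, 1 was higher in basal than in LP cells, 1 was higher and 1 lower in basal than in ML cells, and 1 was lower in LP than in ML cells. Over all genes the shares were 19.6%, 18.0%, 19.0% and 16.4%, and 1 of 5 is close to each of them. Anxa6, a large annexin with a doubled core, was the basal one at 315 CPM against 95.9 in LP and 129 in ML. Anxa4, which binds membranes of epithelial cells, was highest in ML at 413 CPM against 152 in basal and 206 in LP cells. Anxa7 measured 131, 143 and 211 CPM (basal, LP, ML), S100a16 measured 379, 386 and 344 CPM, and S100a13 measured 34.3, 34.3 and 37.5 CPM. The alarmins S100a8 and S100a9 had 19 and 0 counts in the 3 classes, and S100a4, a gene of motile and stromal cells, had 6.

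Genes of known annexin and S100 partners were read from a list of 11, of which 6 had 50 or more counts. Of these, 3 were 2-fold or more higher in basal than in LP cells, 2 were higher in basal than in ML, and 1 was lower in LP than in ML. The shares over all genes were 19.6%, 18.0% and 16.4%. Plat, the tissue plasminogen activator that binds the annexin A2 complex, measured 219 CPM in basal against 6.95 in LP and 7.02 in ML cells. Cav1, the caveolar coat protein, measured 203, 11.6 and 96.3 CPM in the same order, and Cacybp, the calcyclin binding protein, 266, 133 and 158 CPM, so that S100a6 and the gene of its binding protein were highest in different classes. Ahnak, a giant scaffold bound by S100A10 and annexin A2, was highest in LP at 178 CPM against 108 in basal and 95.1 in ML. Plaur, the urokinase receptor, measured 118, 169 and 98.0 CPM, and Plgrkt, a plasminogen receptor, 58.1, 33.4 and 52.0 CPM. Of the other 5, the formyl peptide receptors Fpr1 and Fpr2, through which annexin A1 acts from outside the cell, had 0 counts in the 3 classes, while Tlr4, Dysf and Ager had 38, 16 and 2.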

How the data were processed

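Both libraries were 10X Chromium 3′ single-cell RNA libraries. The authors deposited, for each library, the whole-number count of unique molecules per gene and cell, without normalization. The submitters' processing notes name Cell Ranger 1.2.1 and mm10, and the methods name Cell Ranger 2.0, so the version is unsettled. Cells were used as deposited, with no further filter and no doublet caller. Counts were summed per class and given as CPM. Intervals were exact Poisson for levels, exact conditional binomial for ratios and Clopper-Pearson for shares (95%). PCR duplicates are removed by the molecular identifiers, and intervals cover counting error only. Genes with a summed count of 50 or more over the 3 classes were compared at 2-fold, and a count of 0 was given a limit of 3 counts. Cells were thinned to 1000 counts with a fixed seed. Named were the 10 genes, and those with 50 or more counts from a list of 19 other annexin and S100 genes and a list of 11 partners. The genes and lists were chosen with earlier results of these data known. Alternatives changed the class rules, scaling, fold and depth. The steps were tested on simulated data. Python 3.11.15, numpy 2.4.6, scipy 1.17.1, pandas 2.3.3 and matplotlib 3.10.9 were used.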

Additional observations from a re-analysis of the deposited data

How the results depend on the processing

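No paired analysis was possible because each group is 1 library. Of 90 recomputed counts of genes past 2-fold, 79 kept within 1.5 times their value. The count higher in basal than in LP, which was 2, became 1 when cells meeting both rules were taken as basal, without cells with stromal, vascular or immune markers, with class thresholds scaled to depth, with median-of-ratios scaling and with cells thinned to 1000 counts. It became 0 with the mean of per-cell CPM and at a fold of 3, and 4 in each of 2 alternatives chosen after seeing the data, LP cells limited to those with progenitor genes and LP cells with 2 or fewer counts of Prlr, Stc2 and Gpx3. The count lower in basal than in LP went from 4 to 2 at a fold of 3, and the count higher in basal than in ML from 0 to 1 at a fold of 1.5. Median-of-ratios scaling moved all log2 ratios by -0.18 for basal over LP, 0.07 for basal over ML and 0.25 for LP over ML. No ratio past 2-fold changed direction in 13 settings, 1 of them also chosen after seeing the data beside those 2 (a stromal filter without Dcn). Under 2-fold, the sign changed in at least 1 setting for S100a14 between basal and LP, Anxa8 between basal and ML, and Anxa1, Anxa5 and S100a1 between LP and ML. Shares of cells moved with the thinning depth in 80 of 90 recomputed values. Depth limits Anxa8 outside LP and S100a14 in LP, with 11, 19 and 18 counts.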
